A study of Mus musculus with 4 samples.

Results

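The genes described here are the 5 subunits of the transcription factor NF-kB and 5 genes grouped here as its inhibitors. They are 10 of the 25239 gene symbols in each count table. They were taken by symbol. The subunit genes are Rela, Nfkb1, Nfkb2, Rel and Relb, and the inhibitor genes are Nfkbia, Nfkbie, Nfkbid, Tnfaip3 and Bcl3. All 10 were found in the tables of all 4 libraries. All 10 passed the minimum mean count over these libraries, 10 reads, used for comparisons across genes.

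RNA-seq was made from B16 tumors, a transplantable mouse melanoma grown under the skin of both flanks of B6 mice, with 1 library for each of 4 groups. Treatment began on day 7, tumors were taken 12 days after the step the labels call ACT, and CTX was given the day before that step in all groups. For the CTX library the labels name PBS, put into left tumors, and neither T cells nor virus. The MV left tumor library was made from left tumors that had free virus put into them, with TRP-1 T cells given intravenously. The Remote tumor library is from the right tumors of that treatment, which were not injected. For TRP-1MV, cells of that name were given intravenously, understood here as TRP-1 T cells that carry the virus, and the labels do not say from which flank the tumor came. The headers have MYXV for the virus, as myxoma virus is commonly abbreviated. The labels state n = 2 without saying whether RNA of several mice was pooled, and each group had 1 table, so no test between groups was possible. They call the source a melanoma cell line, while the extraction protocol names tumor tissue. The MV left tumor and TRP-1MV are called virus-treated below, but TRP-1 cells were given in both as well and not for CTX. Against CTX, virus and T cells therefore cannot be told apart. T cells alone, a group the labels describe, were not analysed here.

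NF-kB proteins bind DNA as pairs of subunits. In resting cells inhibitors of the IkB family hold them in the cytoplasm, and signals from TNF, interleukin-1, Toll-like or antigen receptors activate the IKK kinases, which mark the inhibitors for destruction. Several inhibitors are themselves NF-kB target genes, so that the response limits itself. In tumors the pathway is known from infiltrating leukocytes as well as from the cancer cells.

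The libraries held 12375526 reads for the MV left tumor, 14802809 for TRP-1MV, 21790759 for the Remote tumor and 20811605 for CTX. Counts were scaled with TMM factors and divided by the scaled library size (CPM). A count of 0 allowed at most 0.151 to 0.222 CPM, taken as 3 reads. The 5 pan-leukocyte marker genes summed to 25.8 CPM in CTX, 25.8 in the Remote tumor, 874 in the MV left tumor and 1098 in TRP-1MV, and the 8 pigment cell markers to 24989, 25430.2, 5794 and 5424 CPM, in that order. The pigment markers of the labelled melanoma were thus present in each library. Keratinocyte markers of the labelled skin were at 0 to 0.993 CPM in sum, and in CTX the B cell gene Ms4a1 and the neutrophil genes S100a8, Cxcr2 and Retnlg had no read. Reads of Rn45s, Lars2 and Rpph1, genes of RNA without a poly(A) tail or with ribosomal RNA-like sequence, were 0.141% of the total in CTX, 0.164% in the Remote tumor, 1.64% in the MV left tumor and 1.62% in TRP-1MV, and their part in the results was not tested. In bulk tissue, more cells of a type and more RNA per cell cannot be told apart.

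The DNA before the start sites of these genes was read first, since genes that NF-kB itself switches on carry kappaB sites. RefSeq sequence of build GRCm38.p6, which is mm10, was held for 8 of the 10 members, without Nfkb1 and Relb. The 250 bases before each start site were searched on both strands for the 10-letter kappaB consensus, where matches may overlap. The consensus was found for 6 of the 8 members, which were Nfkb2, Rel, Nfkbia, Nfkbie, Nfkbid and Tnfaip3. It was in 4.46% of all 27025 genes with such a window and in 3.9% of the 32851 windows. Rela and Bcl3 had no match in this window. These matches are letters in the reference and were not tested for binding.

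The whole window is shown for Nfkbia, the textbook feedback inhibitor, and for Rel, the subunit gene with the largest ratio below. Each is 250 bases, 5′ to 3′ on the strand of its gene, with the consensus matches in capitals.
Nfkbia, chr12:55492648-55492897, - strand: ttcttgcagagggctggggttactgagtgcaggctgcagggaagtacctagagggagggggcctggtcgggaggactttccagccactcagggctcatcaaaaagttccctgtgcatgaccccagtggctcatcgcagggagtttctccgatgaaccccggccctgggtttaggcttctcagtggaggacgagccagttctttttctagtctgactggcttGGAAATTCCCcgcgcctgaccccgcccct
Rel, chr11:23770970-23771219, - strand: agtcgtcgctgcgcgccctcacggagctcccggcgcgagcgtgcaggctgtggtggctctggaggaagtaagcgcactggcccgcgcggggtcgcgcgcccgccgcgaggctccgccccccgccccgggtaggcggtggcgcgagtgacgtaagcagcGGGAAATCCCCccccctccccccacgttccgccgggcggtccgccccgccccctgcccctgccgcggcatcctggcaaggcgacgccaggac
The Nfkbia match began 29 bases before the start site and lay on the opposite strand. In Rel, 3 matches on both strands overlapped within 11 bases, the first beginning 92 bases before the start site.

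For the other matched members, 30 bases around each match are shown, because these genes combine matches with very different ratios.
Tnfaip3, first match, chr10:19015516-19015545, - strand: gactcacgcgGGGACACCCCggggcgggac
Tnfaip3, second match, chr10:19015411-19015440, - strand: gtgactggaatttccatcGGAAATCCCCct
Nfkb2, first stretch, chr19:46304689-46304718, + strand: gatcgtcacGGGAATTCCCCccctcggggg
Nfkb2, second stretch, chr19:46304707-46304736, + strand: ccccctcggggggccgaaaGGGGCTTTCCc
Nfkb2, before start site 2, chr19:46305449-46305478, + strand: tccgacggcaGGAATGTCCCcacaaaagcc
Nfkb2, before start site 3, chr19:46305695-46305724, + strand: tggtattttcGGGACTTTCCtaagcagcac
Nfkbid, first match, chr7:30422170-30422199, + strand: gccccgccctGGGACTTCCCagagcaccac
Nfkbid, second match, chr7:30422215-30422244, + strand: gggccgaacaGGAATTCCCCgtgcgcgggg
Nfkbie, chr17:45555584-45555613, + strand: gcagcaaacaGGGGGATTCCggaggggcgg
The Tnfaip3 matches began 125 and 12 bases before the first of its 2 start sites, and the first stretches of Nfkb2 39 and 11 bases before the first of its 3. The first Nfkb2 stretch holds 3 overlapping matches on both strands and the second holds 1. Both lie in annotated GENCODE exons of Nfkb2. The other 2 start sites of Nfkb2 had 1 match each, 236 and 225 bases upstream. Of the 30 bases shown before start site 3, 29 lie in an annotated exon as well. Nfkbid had matches before the second of its 3 start sites alone, 226 and 181 bases upstream. The single Nfkbie match began 106 bases upstream.

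Set against CTX, the MV left tumor had higher levels of 8 of the 10 genes, and TRP-1MV of the same 8. A call needed a ratio of 2 or more and a 95% counting interval without equality. By that rule 18.1% of the 13357 genes compared were higher in the MV left tumor and 18.5% in TRP-1MV, and 29.2% and 30.2% were called in either direction. With a minimum mean count of 50, 13.4% and 13.7% of all genes were higher. Nfkb1 and Nfkbie were the members not called. The median log2 ratio of the members was 2.55 in the MV left tumor and 2.7 in TRP-1MV, where the medians of all genes compared were -0.05 and -0.07. No member was lower. The brackets that follow log2 ratios hold these intervals, which cover the error of counting alone. The spread from mouse to mouse and from one preparation to the next was not measured. The comparisons with CTX share that library.

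**Figure D1:**
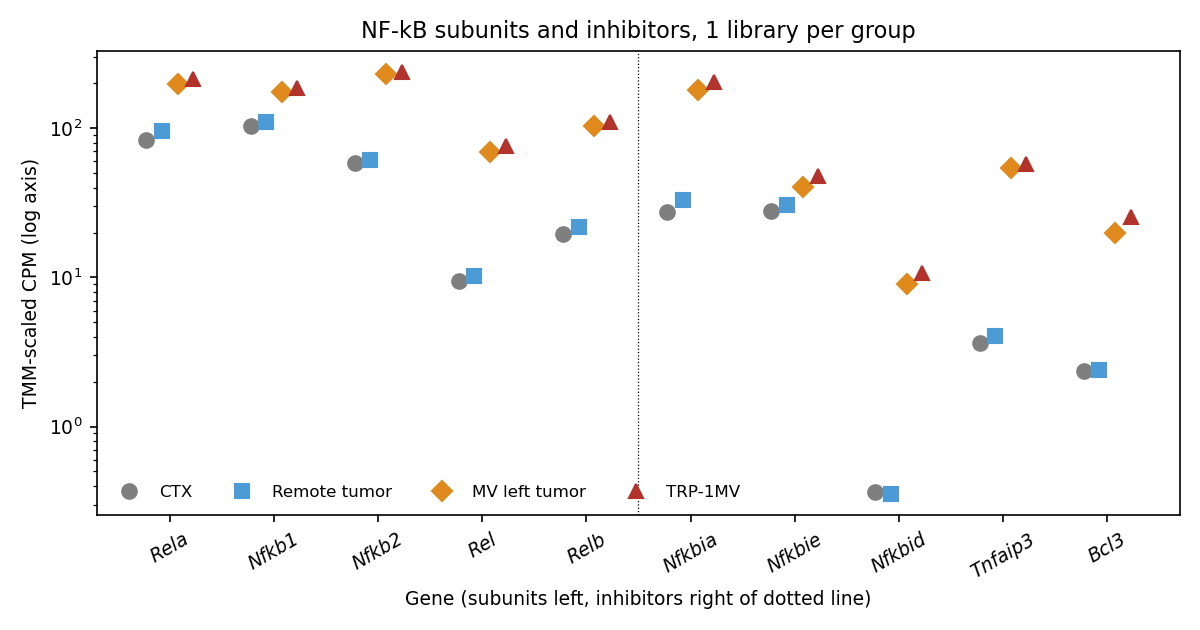
Level of each member in each library, as TMM-scaled CPM on a log axis, with 1 point per library and no error bars since each group had 1 library. The CTX and Remote tumor points lie side by side for all 10 genes, and the MV left tumor and TRP-1MV points lie above them, least so for Nfkb1 and Nfkbie.

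Among the subunits, Rela encodes the main activating subunit (chr19:5637483-5648130, + strand). It had 1591 reads in CTX, 1899 in the Remote tumor, 2666 in the MV left tumor and 3431 in TRP-1MV, or 83, 95.4, 197 and 213 CPM. Its log2 ratio to CTX was 1.25 [1.16, 1.34] in the MV left tumor and 1.36 [1.27, 1.45] in TRP-1MV, the smallest of the called members.

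Rel encodes c-Rel, an activating subunit best known from lymphocytes (chr11:23736847-23770970, - strand). It had 181 reads in CTX, 204 in the Remote tumor, 932 in the MV left tumor and 1234 in TRP-1MV, or 9.44, 10.2, 69 and 76.6 CPM. The ratio to CTX was 7.31-fold in the MV left tumor, a log2 ratio of 2.87 [2.64, 3.11], and 8.12-fold in TRP-1MV, 3.02 [2.79, 3.25]. Rel was the subunit with the largest ratio in both virus-treated tumors.

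Relb encodes the activating subunit of the noncanonical branch (chr7:19606217-19629438, - strand). It had 377 reads in CTX, 433 in the Remote tumor, 1403 in the MV left tumor and 1794 in TRP-1MV, or 19.7, 21.8, 104 and 111 CPM. Its log2 ratio was 2.4 [2.24, 2.57] in the MV left tumor and 2.5 [2.34, 2.67] in TRP-1MV.

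Nfkb2 encodes the precursor of the usual partner of RelB (chr19:46304320-46312385, + strand). It had 1117 reads in CTX, 1223 in the Remote tumor, 3124 in the MV left tumor and 3853 in TRP-1MV, or 58.2, 61.4, 231 and 239 CPM. The log2 ratio was 1.99 [1.89, 2.09] in the MV left tumor and 2.04 [1.94, 2.14] in TRP-1MV. Nfkb2 shares 531 exon bases, 11.6% of its exon length, with the gene model AC114539.1 and 299, or 6.52%, with Psd, both on the opposite strand, and the strand setting of the counting is not given in the sources used here. Psd itself had 226, 214, 598 and 768 reads in the same order.

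Nfkb1 encodes the precursor of the usual partner of RelA (chr3:135584655-135691547, - strand). It had 2003 reads in CTX, 2192 in the Remote tumor, 2348 in the MV left tumor and 2990 in TRP-1MV, or 104, 110.1, 174 and 186 CPM. The ratio to CTX was 1.66 in the MV left tumor, a log2 ratio of 0.73 [0.65, 0.82], and 1.78 in TRP-1MV, 0.83 [0.75, 0.91]. It was the only subunit under a ratio of 2, and its intervals excluded equality.

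Among the inhibitors, Nfkbia encodes IkB alpha, the inhibitor that is destroyed and made anew within each round of signalling (chr12:55489410-55492647, - strand). It had 528 reads in CTX, 652 in the Remote tumor, 2429 in the MV left tumor and 3283 in TRP-1MV, or 27.5, 32.8, 180 and 204 CPM. Its ratio to CTX was 6.53 in the MV left tumor, a log2 ratio of 2.71 [2.57, 2.85], and 7.4 in TRP-1MV, 2.89 [2.76, 3.02].

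Tnfaip3 encodes A20, an enzyme that edits ubiquitin chains on signalling adaptors and so shuts off IKK (chr10:19000910-19015657, - strand). It had 70 reads in CTX, 81 in the Remote tumor, 735 in the MV left tumor and 922 in TRP-1MV, or 3.65, 4.07, 54.4 and 57.2 CPM. It was 14.9-fold higher in the MV left tumor (log2 ratio 3.9 [3.54, 4.27]) and 15.7-fold higher in TRP-1MV (3.97 [3.62, 4.34]) than in CTX.

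Bcl3 encodes an IkB-like protein that acts in the nucleus on subunits without an activating domain (chr7:19808462-19822770, - strand). It had 45 reads in CTX, 48 in the Remote tumor, 269 in the MV left tumor and 411 in TRP-1MV, or 2.35, 2.41, 19.9 and 25.5 CPM. The log2 ratio was 3.08 [2.62, 3.57] in the MV left tumor and 3.44 [3, 3.92] in TRP-1MV. Bcl3 shares 161 exon bases with the opposite-strand gene model Gm16175. Bcl3 held no consensus match in its window. Its ratio lay above that of the matched Nfkb2 in both tumors, with intervals that did not overlap. In the MV left tumor its interval overlapped those of the matched Rel and Nfkbia.

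Nfkbid encodes IkB NS, another nuclear IkB-like protein (chr7:30421732-30428746, + strand). It had 7 reads in CTX, 7 in the Remote tumor, 122 in the MV left tumor and 173 in TRP-1MV, or 0.365, 0.352, 9.03 and 10.7 CPM. It had the largest ratio of the 10 members, 24.7-fold in the MV left tumor and 29.4-fold in TRP-1MV. With 7 reads in CTX these are imprecise, and the log2 intervals ran from 3.54 to 5.97 and from 3.81 to 6.21. Nfkbid passed the minimum mean count only through the virus-treated tumors.

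Nfkbie encodes IkB epsilon, a cytoplasmic inhibitor (chr17:45555703-45563169, + strand). It had 534 reads in CTX, 610 in the Remote tumor, 548 in the MV left tumor and 766 in TRP-1MV, or 27.8, 30.6, 40.6 and 47.6 CPM. Its log2 ratio was 0.54 [0.37, 0.72] in the MV left tumor and 0.77 [0.61, 0.93] in TRP-1MV, the smallest of the 10. Nfkbie thus combined a consensus match in its window with the smallest ratio. Other members went the other way. Nfkbid and Tnfaip3, both matched, had the largest ratios of the 10, and Rela, without a match, had the smallest of the called members. A relation between match and ratio was not tested.

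**Figure D2:**
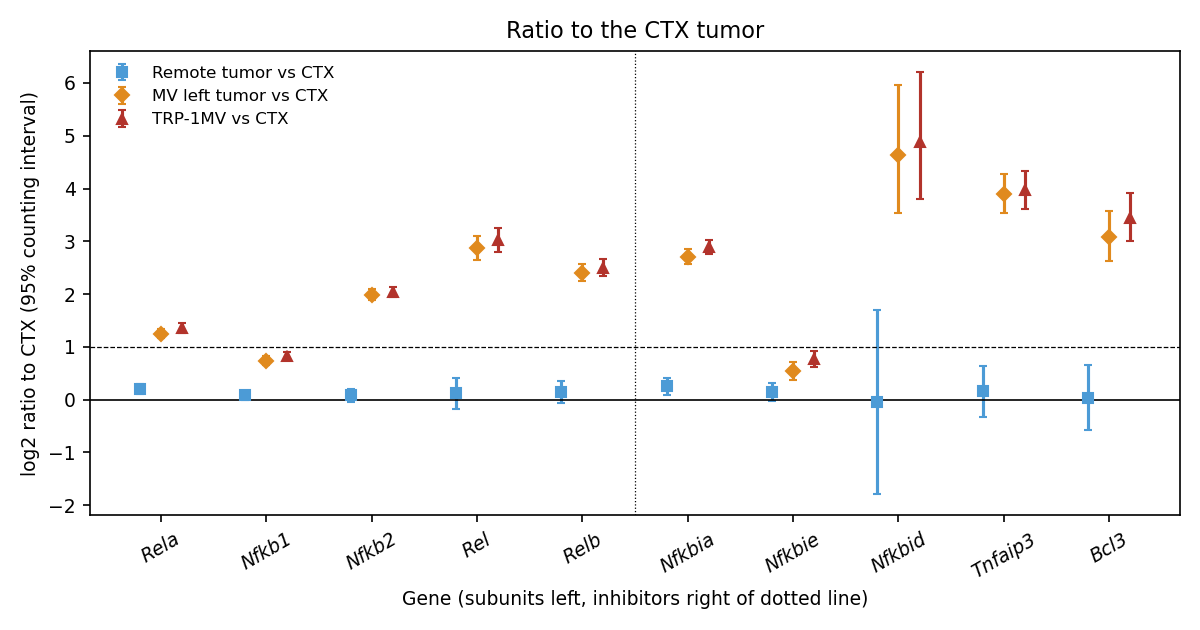
Log2 ratio of each member to the CTX library for the Remote tumor, the MV left tumor and TRP-1MV, with 95% counting intervals as bars. The solid line marks equality and the dashed line a ratio of 2. The 8 called members lie above the dashed line in both virus-treated tumors, and the 10 Remote tumor points lie near 0.

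These ratios depend on how libraries are scaled, because the virus-treated tumors differ from CTX in many genes. Scaling on 13 housekeeping genes moved all log2 ratios by 0.6 in the MV left tumor and 0.59 in TRP-1MV, and total counts by 0.24 in both. On the housekeeping scale all 10 members were called higher in both tumors, as were 31.8% and 30.9% of all genes. By total counts 8 members were called in the MV left tumor and 10 in TRP-1MV, where 22.1% and 22.3% of all genes were higher. Nfkb1 and Nfkbie were the members whose call depended on that choice. No scaling turned the direction of a called member. With TMM, 5 of the 13 housekeeping genes were themselves called lower in each of the virus-treated tumors than in CTX.

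A ratio of the reads of 2 members within a library does not depend on scaling, and it showed that the members did not move by equal amounts. Relative to Rela, all 9 other members had a changed ratio in the MV left tumor against CTX by counting interval, with 7 higher and 2 lower. Rel reads per Rela read were 0.114 in CTX, 0.107 in the Remote tumor, 0.35 in the MV left tumor and 0.36 in TRP-1MV. The log2 change from CTX was 1.62 [1.37, 1.87] in the MV left tumor and 1.66 [1.42, 1.91] in TRP-1MV. Tnfaip3 reads per Rela read went from 0.044 in CTX to 0.276 in the MV left tumor, a log2 change of 2.65 [2.28, 3.03]. Nfkbia reads per Rela read went from 0.332 to 0.911, a log2 change of 1.46 [1.29, 1.62].

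The lower ones were Nfkb1 and Nfkbie. Nfkb1 reads per Rela read were 1.26 in CTX and 0.881 in the MV left tumor, a log2 change of -0.52 [-0.64, -0.39]. Nfkbie reads per Rela read were 0.336 and 0.206, a change of -0.71 [-0.9, -0.51]. In TRP-1MV the changes were -0.53 [-0.65, -0.41] for Nfkb1 and -0.59 [-0.77, -0.4] for Nfkbie, again with the 7 other members above 0. In the Remote tumor against CTX the interval of all 9 ratios included no change. Between Nfkbie and Nfkb1 themselves the log2 change of the read ratio from CTX was -0.19 [-0.39, 0] in the MV left tumor and -0.06 [-0.24, 0.12] in TRP-1MV, and against the Remote tumor it was -0.25 [-0.44, -0.06] in the MV left tumor.

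**Figure D3:**
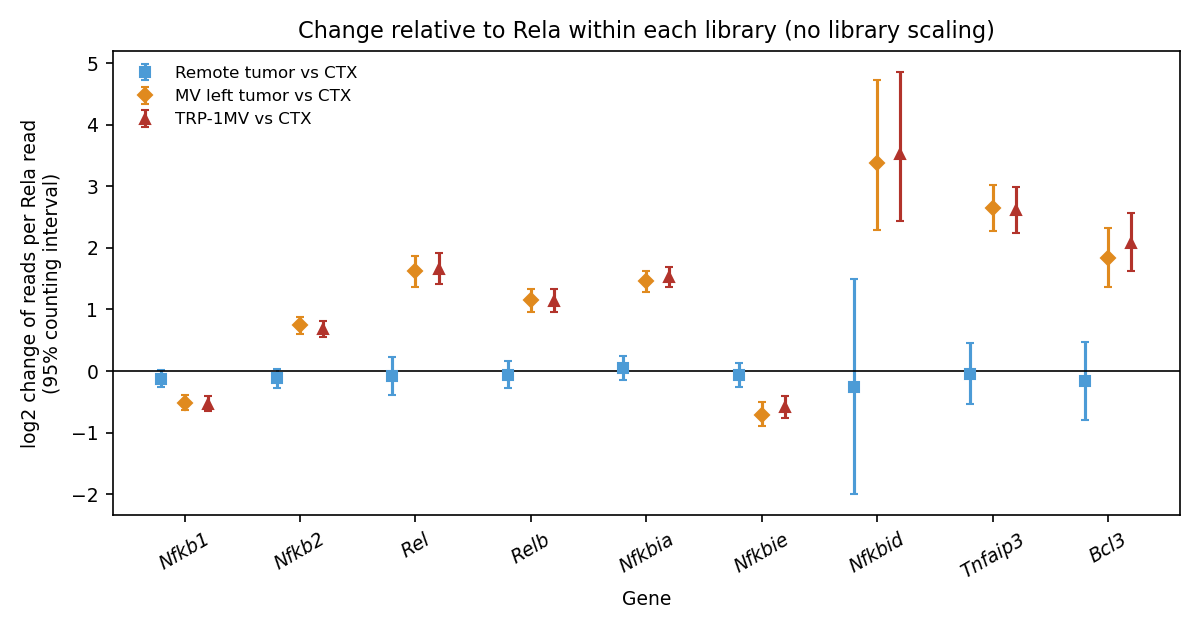
Log2 change from CTX in the reads of each member per Rela read of the same library, with 95% counting intervals as bars, for the Remote tumor, the MV left tumor and TRP-1MV. In both virus-treated tumors 7 genes lie above 0 while Nfkb1 and Nfkbie lie below it, and every Remote tumor interval includes 0.

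Summed over the groups, the 5 inhibitors had 1184 reads against 5269 of the 5 subunits in CTX, 1398 against 5951 in the Remote tumor, 4103 against 10473 in the MV left tumor and 5555 against 13302 in TRP-1MV. Inhibitor reads per subunit read were thus 0.225, 0.235, 0.392 and 0.418. The groups are those named at the start, and these read sums do not measure inhibition. The log2 change from CTX was 0.8 [0.7, 0.91] in the MV left tumor, 0.89 [0.79, 1] in TRP-1MV and 0.06 [-0.06, 0.19] in the Remote tumor. Nfkbia supplied most inhibitor reads in the virus-treated tumors, 2429 of 4103 and 3283 of 5555.

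The makeup of the subunit transcripts was compared per kilobase of exon. Rela was the largest share of the 5 subunits in each library, at 49.4% in CTX, 51.3% in the Remote tumor, 38.9% in the MV left tumor and 39.4% in TRP-1MV. Nfkb2 took 23.2%, 22.1%, 30.6% and 29.7%, Relb 9.25%, 9.25%, 16.2% and 16.3%, and Rel 2.31%, 2.27%, 5.6% and 5.84%, in the same order. The share of the noncanonical pair Relb and Nfkb2 and of Rel was therefore larger in the virus-treated tumors, and that of Nfkb1 was smaller, at 15.8%, 15.1%, 8.73% and 8.75%. The shares depend on the length used. The exons of all annotated Nfkb1 transcripts together span 12061 bases and its longest transcript 4149. With longest transcripts Nfkb1 held 32.2% in CTX and 19.4% in the MV left tumor, and Rela 39.1% and 33.7%. Nfkb2 lay above Nfkb1 in CTX by exon length and below it by longest transcript. The direction of each subunit's difference between CTX and the virus-treated tumors was the same with either length.

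**Figure D4:**
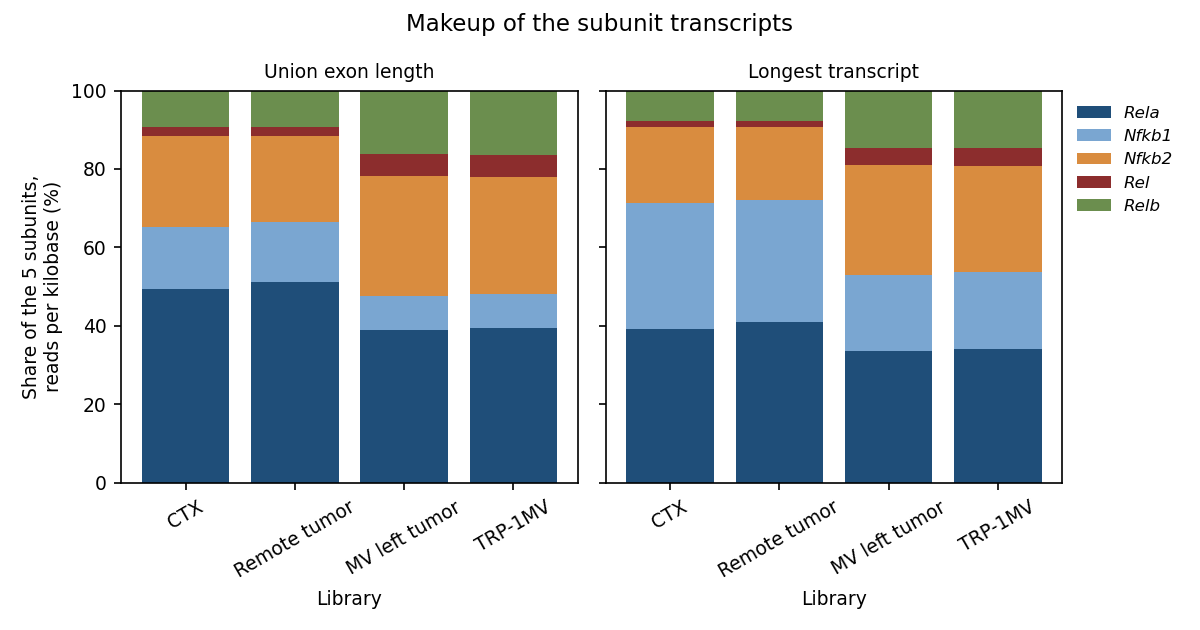
Share of each of the 5 subunits in their summed reads per kilobase, in percent, for each library. The left panel divides reads by the length of all annotated exons and the right panel by the longest transcript. In both panels the Nfkb2, Relb and Rel segments are larger in the MV left tumor and TRP-1MV, and the Nfkb1 and Rela segments smaller, than in CTX and the Remote tumor.

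Among inhibitors the order per kilobase was Nfkbia, Nfkbie, Bcl3, Tnfaip3 and Nfkbid in CTX, at 17.1, 9.14, 0.948, 0.505 and 0.156 CPM per kilobase. In the MV left tumor they stood at 112, 13.3, 8.04, 7.53 and 3.85, and in TRP-1MV at 127, 15.6, 10.3, 7.92 and 4.58. The order was the same in these 3 libraries and in the Remote tumor, where they stood at 20.3, 10.1, 0.974, 0.563 and 0.15.

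Leukocyte genes were higher beside the members. All 5 pan-leukocyte, all 7 T cell, all 5 B cell and 6 of the 7 macrophage and monocyte markers were called higher in both virus-treated tumors than in CTX. Per read of Ptprc, the pan-leukocyte CD45 gene, 9 of the 10 members were lower in the MV left tumor than in CTX and 9 of 10 in TRP-1MV by counting interval. The exception was Nfkbid, with 0.109 reads per Ptprc read in CTX, 0.0639 in the MV left tumor and 0.0729 in TRP-1MV. Its log2 change was -0.78 [-1.94, 0.63] in the MV left tumor. Tnfaip3 came next, at 1.09 reads per Ptprc read in CTX and 0.385 in the MV left tumor, a log2 change of -1.51 [-2.03, -0.98]. Nfkb1 stood at 31.3 and 1.23, a change of -4.67 [-5.06, -4.3]. With 5 pan-leukocyte genes in place of Ptprc, Nfkbid was again the member whose interval included no change. The median log2 ratio of these 5 genes to CTX was 4.99 in the MV left tumor and 5.22 in TRP-1MV. The largest ratios among the members were 4.63 and 4.88. All genes compared had medians of -0.05 and -0.07, so most genes would be lower per leukocyte read. These counts are therefore not particular to the members. The 7 T cell markers summed to 8.71 CPM in CTX, 8.69 in the Remote tumor, 206 in the MV left tumor and 205 in TRP-1MV, and the 7 macrophage and monocyte markers to 59.9, 76.5, 912 and 1348. The part of these cells in the members' ratios was not tested.

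The injected and the uninjected tumors of the free virus treatment were compared next. The same 8 members were called higher in the MV left tumor than in the Remote tumor, against 18.6% of all genes higher and 30.3% called in either direction. Their log2 ratios ran from 1.05 [0.96, 1.13] for Rela to 4.68 [3.6, 6.03] for Nfkbid. Nfkb1, at 0.66 [0.57, 0.74], and Nfkbie, at 0.4 [0.23, 0.57], were not called. TRP-1MV against the Remote tumor gave 8 members higher too, against 18.8% of all genes higher and 31.0% called in either direction, from Rela at 1.16 [1.08, 1.24] to Nfkbid at 4.93 [3.86, 6.27]. Whether the left and right tumors of the same mice were sequenced is not stated.

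In the Remote tumor against CTX no member was called in either direction, where 0.457% of all genes were higher and 0.247% lower, 0.704% in all. The members' log2 ratios ran from -0.05 to 0.25, with a median of 0.13. The intervals of 2 members excluded equality, with Nfkbia at 0.25 [0.08, 0.42] and Rela at 0.2 [0.1, 0.3], both far under a ratio of 2. Of all genes with a ratio, 8.74% were at or above Nfkbia and 11.8% at or above Rela. Of the 10 ratios 9 were above 1, and 8 on the housekeeping scale. The shares of all genes above 1 or with an interval excluding equality were not computed. For Nfkbid, with 7 reads in each library, the interval from -1.79 to 1.69 allowed a ratio of 2 in either direction.

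TRP-1MV and the MV left tumor were close for all 10 members, as for most genes. No member was called, where 0.562% of all genes were higher and 0.217% lower in TRP-1MV, 0.779% in all. The lack of calls is thus not particular to the members. With TMM the 10 log2 ratios ran from 0.05 for Nfkb2 to 0.36 for Bcl3, with a median of 0.13. They were above 0 under each scaling tried, but the scalings shifted this comparison by at most 0.02, too little to turn a sign. The intervals of 6 members excluded equality, a looser rule than the call, and the share of all genes meeting it was not computed. Bcl3 had 25.5 CPM in TRP-1MV and 19.9 in the MV left tumor, a ratio of 1.28 [1.1, 1.5], and Nfkbie a ratio of 1.17 [1.05, 1.31]. The 5 pan-leukocyte genes summed to 1098 and 874 CPM in the same libraries, and per read of those genes 7 of the 10 members were lower in TRP-1MV and none higher. Per read of Ptprc alone none was lower and 2 were higher, Bcl3 at 0.3 [0.06, 0.54] and Nfkbia at 0.12 [0, 0.24], so the direction turned on the leukocyte gene used. Per Rela read the interval included no change for 8 of 9 members, and Bcl3 stood at 0.25 [0.01, 0.49].

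Genes around the members were described from lists on the parts of the pathway. The lists overlap, so some genes are counted in more than 1. The target list shares Tnf and Il1b with the ligand and receptor list, and Traf1 and Birc3 with the adaptor list. Of 14 other inhibitor and feedback genes, 5 were higher in the MV left tumor than in CTX and none was lower, with a median log2 ratio of 0.66, where 18.1% of all genes were higher. Tnip3, which encodes a partner of A20, had 4 reads in CTX, 17 in the Remote tumor, 137 in the MV left tumor and 236 in TRP-1MV. Irak3, an inhibitory kinase-like gene of Toll-like receptor signalling, had 34, 19, 403 and 773. The others were Zc3h12a, encoding the RNase Regnase, at 2.96 [2.7, 3.23], the nuclear IkB gene Nfkbiz at 2.3 [2.07, 2.53] and the deubiquitinase gene Cyld at 1.77 [1.63, 1.91]. At the low end Nfkbib, encoding IkB beta, stood at 0.14 [0.02, 0.27] and the linear deubiquitinase gene Otulin at 0.26 [0.1, 0.42]. These 2 log2 ratios are smaller than the shift between TMM and housekeeping scaling.

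Of 31 genes of the IKK complex, adaptors and ubiquitin ligases, 8 were higher and none lower in the MV left tumor, with a median of 0.44, and 9 were higher in TRP-1MV. Of all genes 18.1% and 18.5% were higher, so the share of this list was not far from that background. The 3 core IKK genes had small ratios in the MV left tumor, with Chuk at 0.52, Ikbkb at 0.28 and Ikbkg at 0.29. Map3k14, encoding the NIK kinase that starts the noncanonical branch, had 138 reads in CTX, 141 in the Remote tumor, 859 in the MV left tumor and 1136 in TRP-1MV, 8.83-fold and 9.8-fold over CTX in the virus-treated tumors. Traf1, an adaptor of TNF receptors, had 11, 31, 502 and 780 reads in that order. Irak4 at -0.7 and Irak1 at -0.68, kinases of Toll-like and interleukin-1 receptors, were the lowest of the list and not called.

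Of 21 measured ligand and receptor genes upstream of the pathway, 16 were higher and 1 lower in the MV left tumor, with a median of 4.41, where 18.1% of all genes were higher and 11.1% lower. The interleukin-1 alpha gene Il1a had 1 read in CTX, 6 in the Remote tumor, 853 in the MV left tumor and 1714 in TRP-1MV. Il18r1, a chain of the interleukin-18 receptor, had 1, 3, 363 and 415. Il1a and Il18r1 passed the minimum mean count only through the virus-treated tumors. Tlr3, the double-stranded RNA receptor, was the gene called lower, at -1.36 [-1.64, -1.08], and the housekeeping shift would bring it under a ratio of 2. Ltbr, the lymphotoxin beta receptor gene, stood at -0.77 [-0.87, -0.66], while its ligand gene Ltb had 4 reads in CTX, 6 in the Remote tumor, 266 in the MV left tumor and 274 in TRP-1MV. Between TRP-1MV and the MV left tumor, 1 gene of these lists was called, Tnfsf13b, which encodes the B cell survival factor BAFF, with 103 and 29 reads, a ratio of 2.98 in favour of TRP-1MV.

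Of 23 measured textbook NF-kB target genes, 18 were higher and none lower in the MV left tumor than in CTX, with a median of 4.79, against the same 18.1% of all genes. Il1b, encoding interleukin-1 beta, was at 7.22 [6.38, 8.23] and Nos2, encoding inducible nitric oxide synthase, at 7 [5.95, 8.32]. At the low end the survival gene Bcl2l1 stood at -0.12 and Sod2, encoding mitochondrial superoxide dismutase, at -0.1, and both would lie above 0 on the housekeeping scale. Csf2, Ccl20 and Sele fell below the minimum count.

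In the Remote tumor, some targets were called. Of the 23 measured targets 10 were called higher than in CTX and none lower, with a median of 0.73, where 0.457% of all genes were higher. The target list was drawn up with earlier results on these libraries known, among them several of these genes, so this count is not independent evidence. None of the 10 members was called. With 0.704% of all genes called in either direction, that is near the background and not particular to the members. Icam1, an adhesion molecule gene, had 39 reads in CTX, 99 in the Remote tumor, 839 in the MV left tumor and 1292 in TRP-1MV, a log2 ratio of 1.29 [0.74, 1.86] in the Remote tumor. Il12b, encoding a chain of interleukin-12 and interleukin-23, had 3, 14, 192 and 300 reads, a log2 ratio of 2.17 [0.33, 4.61]. Traf1 was at 1.44 [0.41, 2.58].

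The other 7 were Ccl4 at 2.75, Cxcl2 at 2.65, Il1b at 2.62, Tnf at 2.52, Ptgs2 at 2.3, Ccl3 at 2.16 and Nos2 at 1.6, all cytokine, chemokine or inflammatory enzyme genes. Their intervals excluded equality, but only 7 of all 13357 genes had an interval beyond a ratio of 2 in this comparison. Tnip3, at 2.03 [0.42, 4.06], and Tnfrsf1b, the second TNF receptor gene, at 1.08 [0.67, 1.51], were called in the other lists. So were Traf1, Tnf and Il1b, which those lists share with the targets. Tnip3 was the only called gene among the 14 other inhibitors and feedback genes. In the same comparison Tnfaip3 stood at 0.16 [-0.32, 0.64], Birc3 at 0.08 [-0.49, 0.66] and Ccl2 at -0.32 [-1.02, 0.37], and these 3 are textbook targets as well. Of the 7 macrophage and monocyte markers 2 were called higher, Cd14, with 25 reads in CTX and 79 in the Remote tumor, and Adgre1, with 34 and 75, and the other 5 were not called. The dendritic cell marker Itgax, with 18 and 39 reads, and the neutrophil marker Csf3r, with 11 and 25, were called higher as well. None of the 5 pan-leukocyte and 7 T cell markers was called, and Ptprc had 64 and 52 reads. The part of such cells in the target genes' ratios was not tested.

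**Figure D5:**
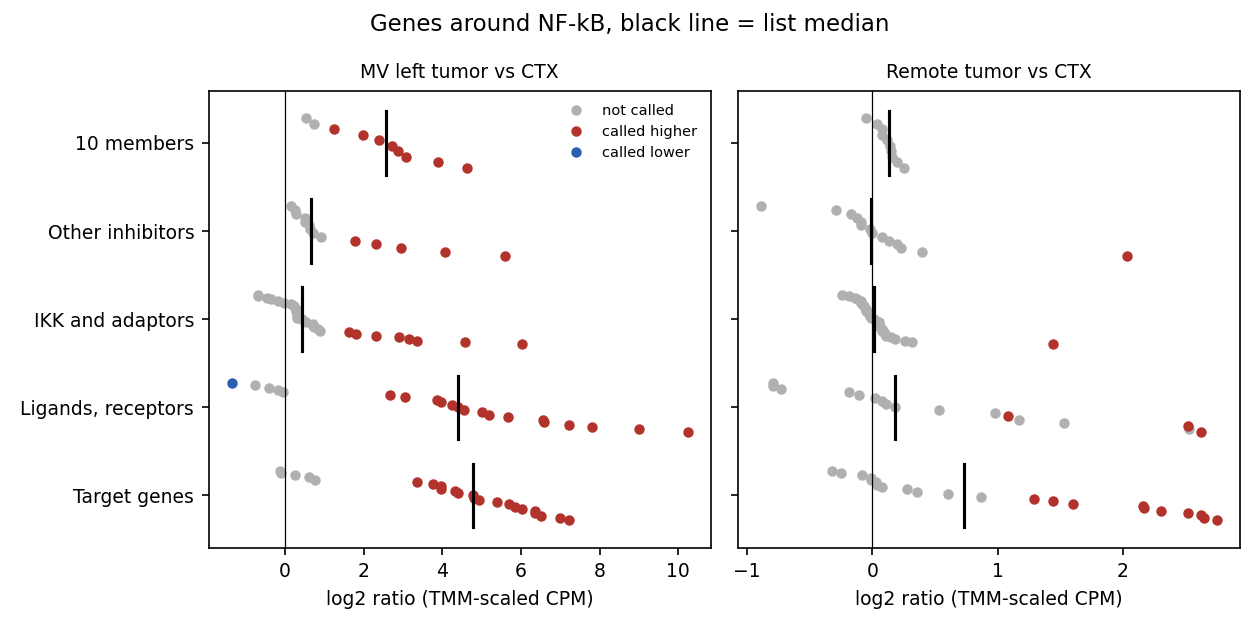
Log2 ratio of each measured gene of the 5 lists for the MV left tumor against CTX (left) and the Remote tumor against CTX (right), on axes of different range. Red points were called higher, blue lower and grey were not called, and black lines are list medians. On the right none of the 10 members is called, and 10 of the 23 target genes are, where 0.704% of all genes were called.

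Genes with the most similar pattern were found by the distance between log2 CPM profiles over the 4 libraries, each centred on its own mean, among 10365 genes. Nfkb2 lay nearest to Fos, Rhob and Heca, at distances of 0.0209, 0.0332 and 0.0634, and Fos had log2 ratios to CTX of 2 in the MV left tumor and 2.07 in TRP-1MV. Rel lay nearest to Dusp1, at 0.0688, Bcl3 to Btg1, at 0.0808, and Tnfaip3 to Rhof, at 0.0899, and Tnfrsf4, at 0.114. Nfkbia lay nearest to Tbc1d8 and Slc41a2, and Slc41a2 was also the second nearest to Rel. Relb lay nearest to Mir22hg, Nfkbie to Trib1, Rela to Parp6 and Nfkb1 to Fbrsl1. Nfkbid was under the minimum mean count of 100 and was not ranked. None of the 9 ranked members was among the 3 nearest genes of another, and Zc3h12a, the feedback gene above, was the third nearest to Bcl3. With 4 libraries in 2 like pairs, many genes share such a profile.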

How the data were processed

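RNA-seq reads were aligned with HISAT2 and counted with featureCounts on build mm10, per the submitters' processing notes, which give no versions. The authors deposited raw counts per gene symbol, 1 table for each of 4 libraries. For annotation, strand and multiply mapped reads, the settings were not given in the sources used here. Groups were taken from the sample titles.

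TMM factors computed across all libraries (edgeR 4.0.16, R 4.3.3) scaled the counts to CPM. The 13357 genes with a mean count of at least 10 were compared, each with a 95% exact conditional binomial (Clopper-Pearson) interval (scipy 1.17.1, numpy 2.4.6, pandas 2.3.3, Python 3.11.15, figures with matplotlib 3.10.9). The mean was over all 4 libraries, so genes nearly absent from CTX and the Remote tumor could pass through the virus-treated tumors. A count of 0 was set to 3 reads, and ratios were left out if neither library exceeded 3 reads. Ratios of reads within a library were compared by the exact conditional interval of the odds ratio. The code was tested on simulated counts. Exon lengths and positions came from GENCODE M21 of the same build. Counting intervals treat reads as independent molecules and leave out biological spread. No p-value across genes was computed.

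All members were named in each comparison. Of the other lists the text names the 2 highest and 2 lowest genes in the MV left tumor against CTX and those called in the Remote tumor or between the virus-treated tumors, except 1 gene that is not reported here. Further genes, such as Map3k14, Ltb, Zc3h12a, Nfkbiz, Cyld, Birc3, Ccl2 and the IKK genes, were named after their values were seen. Nearest genes were ranked on log2(CPM + 0.5) among genes with a mean count of at least 100. The members and lists were chosen with earlier results of these data known. Protein features and a stricter kappaB motif that were planned are not reported here. Alternatives were scaling by total counts, by upper quartiles, by housekeeping genes or by size factors of DESeq2 1.42.0, TMM without 86 ribosomal protein genes, other minimum counts and call rules, and thinning.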

Additional observations from a re-analysis of the deposited data

How the results depend on the processing

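No paired analysis was possible because there was a single library per group. In the 6 comparisons the count of members called stayed within 1.5 times of the main count under all 10 alternatives. It was 8 for each of the 4 comparisons of a virus-treated tumor with CTX or the Remote tumor, and between 6 (a ratio of at least 4) and 10 (housekeeping scale) under the alternatives. It was 0 for the Remote tumor against CTX and for TRP-1MV against the MV left tumor under each of them. Most alternatives could not change these counts of 0. All 10 members pass each minimum count, and stricter call rules can only lower a count. The scaling shifts there were too small to bring the largest member log2 ratios, 0.25 and 0.36, to a ratio of 2. No member called in a comparison changed direction. The scaling shifts, at most 0.66, were too small to do that at a ratio of 2 or more. On the housekeeping scale 36 of 60 member ratios moved beyond their counting interval, and with total counts 28 of 60. The other scalings and thinning moved none. Scaling also set the balance of all genes: of those called in the MV left tumor against CTX, 61.8% were higher with TMM, 90.8% by housekeeping genes and 76.9% by total counts. The count of all genes called there was 3899, with 1683 at a ratio of at least 4, and for the Remote tumor against CTX it was 94, with 20 at that ratio, 144 with no minimum count, 40 with a minimum of 50 and 7 with an interval beyond a ratio of 2. For TRP-1MV against the MV left tumor it was 104, and 6, 194, 13 and 1 under these settings. In the MV left tumor against CTX, all 9 ratios to Rela kept an interval without equality after thinning, which was not run for TRP-1MV. The share of Rela among the subunits in CTX was 49.4% by exon length and 39.1% by longest transcript, a difference made by the length alone. Depth limits Nfkbid most, with 7 reads in CTX and in the Remote tumor.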
